A study of Mus musculus with 12 samples.

Results

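Whole lungs of 22-month-old mice given an antibody against PD-1 were compared with whole lungs of 22-month-old mice given a control antibody. The comparison takes 6 of the 12 libraries of the series, chosen by their labels: 3 of aged mice on anti-PD-1 alone and 3 of aged mice on control antibody. All mice were C57BL/6J and carried MO4, a melanoma line placed under the skin. Injections were made into the peritoneum on days 3, 7 and 11 after the tumour cells, with anti-PD-1 in one group and an isotype-matched rat antibody in the other. The remaining 6 libraries come from mice of 2 months on anti-PD-1 and from mice of 22 months on anti-PD-1 plus anti-IL-21R, which binds the receptor of the cytokine IL-21, 3 of each. They entered the shared estimate of spread, and their levels are given at the end. The labels used here give no antibody clone, dose or hour of collection. They do not say whether every library is a separate mouse. The p-values therefore measure only the spread between these samples, which may be technical.

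PD-1 is an inhibitory receptor of activated T cells, and antibodies that block it are used to release T cell responses against tumours. Follicular helper T cells, which help B cells make antibody, carry PD-1 together with the chemokine receptor CXCR5, and CXCL13 is the ligand that draws CXCR5-bearing cells into lymphoid follicles. Interferon gamma from T and NK cells switches on antigen presentation and cell-autonomous defence genes, whereas CXCL1, CXCL2 and IL-6 belong to an NF-kB-driven programme that recruits neutrophils. A lung also holds capillary endothelium, alveolar and airway epithelium, fibroblasts, smooth muscle and the mesothelial lining. In RNA from the whole organ, fewer cells of a type and less RNA per cell cannot be told apart.

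Of the 49585 genes counted, 18556 passed the filter on low counts and were tested. The deposited counts summed to between 18355975 and 22058620 per library in the 6 libraries. A gene is called here where its adjusted p was under 0.05 (edgeR quasi-likelihood F test, two-sided, Benjamini-Hochberg over all genes tested). Levels are CPM, which are library-scaled read counts (TMM), listed for replicates 1, 2 and 3 of each group, and fold changes are log2 values, anti-PD-1 minus control, ± SE. With anti-PD-1, 2025 genes were called, which is 10.9% of those tested: 990 rose (5.34%) and 1035 fell (5.58%). Changes of 2-fold or more made up 160 of the former and 182 of the latter. For 2996 genes (16.1%) all 3 anti-PD-1 libraries lay above all 3 controls, and for 3035 (16.4%) they lay below. The first principal component of the 6 libraries held 39.9% of the variance, with anti-PD-1 between -40.69 and -24.51 and the controls between 19.63 and 38.21. The second, with 25.9%, set control 1 (-45.18) apart from control 2 (35.62).

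The calls depend on single libraries. Refits that left out 1 of the 6 libraries called between 607 genes (without control 2) and 1995 (without control 1), and 428 calls (212 higher, 216 lower) passed in all 6. Without anti-PD-1 library 1, 2 or 3 the count was 1057, 881 and 715, and without control 3 it was 1497. The genes given in full below are mostly of those 428, and for the others the libraries whose absence ended the call are named. Lung identity markers were at high levels in the 6 libraries: Sftpc, the surfactant gene of type 2 alveolar cells, ran from 9465 to 13527 CPM and Scgb1a1, of airway secretory cells, from 12756 to 25220 CPM. The pigment cell genes Tyr, Tyrp1 and Dct had between 0 and 5 raw counts per library. Others of that list were counted more often. Pmel had 52, 71 and 63 raw counts with anti-PD-1 and 96, 38 and 46 in the controls. Mlana had 37, 57 and 41 against 83, 75 and 69. Of the 4 list genes tested 1 was called lower, a call that did not pass in all 6 refits. Mitochondrially encoded reads made up 7.88, 8.31 and 11.85% of the counts with anti-PD-1 and 7.32, 10.39 and 7.97% in the controls.

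Fold changes moved with transcript length. When genes were cut into 5 equal bins by exon length, 1.48% rose and 8.12% fell in the shortest bin, and 12.1% rose and 1.65% fell in the longest. Across 18510 genes with a known length the rank correlation of the fold change with exon length was 0.274, and with GC content -0.173. Genes are not independent replicates, so this is a description. After a trend on length and GC content was removed from each library, 617 genes were called higher and 813 lower. Its part in the results below was not tested. Beside the counts of called members of the gene lists below, brackets give the count in the refits without anti-PD-1 library 1, 2 and 3 and control 1, 2 and 3, in that order, then how many of the calls passed in all 6. Where removal of the trend ended calls, the number kept follows.

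**Figure D1:**
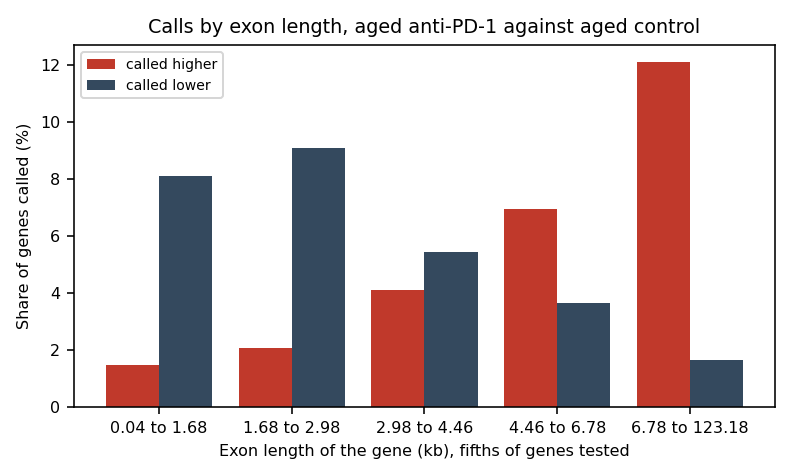
Share of genes called higher (red) or lower (dark) in lungs of aged mice given anti-PD-1, in 5 bins of the 18510 genes with a known exon length, in kb on the x axis. The share called higher climbs from 1.48% to 12.1% from the shortest to the longest bin, and the share called lower drops from 9.08% in the second bin to 1.65% in the longest.

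The genes were read through 69 lists of cell type markers and processes. Counts of called members are to be read beside the 5.34% of all genes called higher and 5.58% called lower. Counts of members without overlap are to be read beside 16.1% higher and 16.4% lower. The bars of called members per list show the direction of each group: follicular helper, endothelial and interferon gamma lists lie to the right, and mesothelial, neutrophil chemokine, metallothionein and neutrophil lists to the left. Several lists had no called member, among them general T cell genes (18 tested), CD8 and cytotoxic T cell genes (14) and type 2 (14) and type 1 (13) alveolar cell genes.

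**Figure D2:**
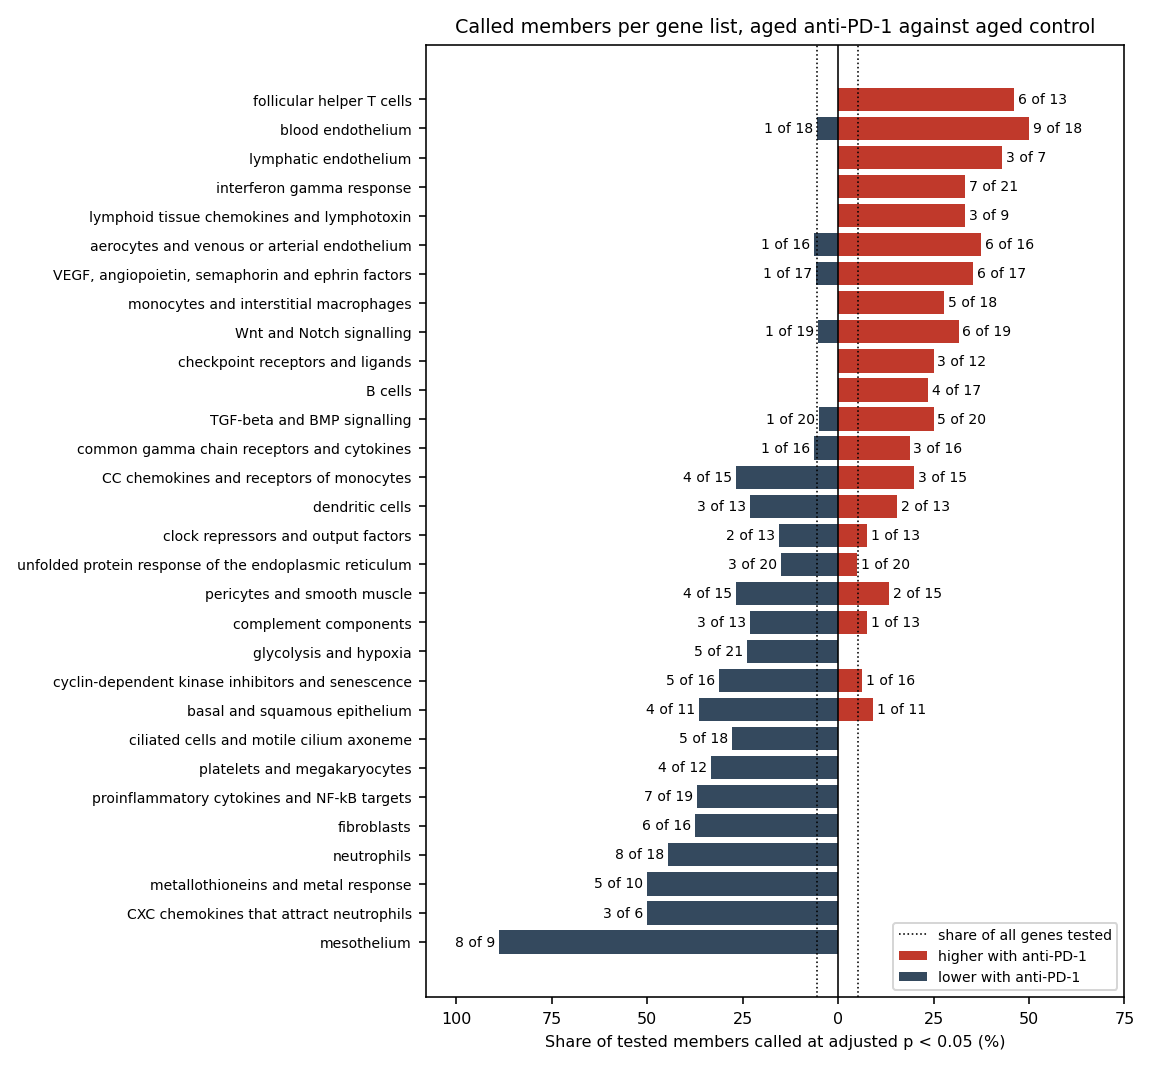
Share of the tested members of each gene list called higher (red, to the right) or lower (dark, to the left), for lists of up to 30 tested members with 3 or more called. Dotted lines mark the share of all genes tested, 5.34% higher and 5.58% lower, and 8 of 9 mesothelial genes stand at the far left while 6 of 13 follicular helper genes stand far right.

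Genes listed for follicular helper T cells rose in part with anti-PD-1. Of 13 tested, 6 rose (7, 6, 5, 5, 6 and 6 in the refits, 5 in all 6), none fell and 7 were not called. The median log2 fold change was 0.836 beside -0.0156 over all genes. Cxcr5, the receptor for CXCL13, was at 20.9, 21.2 and 21.7 CPM with anti-PD-1 and 10.8, 7.17 and 13.2 CPM in the controls, and it rose 2.04-fold (1.03 ± 0.22, adjusted p = 0.0133). No library of one group reached the other, and the anti-PD-1 libraries lay within 1 CPM of each other. Cxcl13 itself was at 36, 20.9 and 57.7 CPM against 13.3, 14.8 and 6.57 CPM and rose 3.3-fold (1.72 ± 0.35, adjusted p = 0.0136). Anti-PD-1 library 3 held the highest level and control 3 the lowest. Both calls passed in the 6 refits that left out a library. That of Cxcl13 was lost without a filter on low counts.

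Tox2, a transcription factor of follicular helper and chronically stimulated T cells, was at 14.4, 22 and 17.2 CPM with anti-PD-1 and 9.04, 7.84 and 10.2 CPM in the controls (0.98 ± 0.18, adjusted p = 0.0074). Slamf6, a receptor through which T cells contact B cells, was at 13, 14.8 and 17.4 against 8.47, 6.6 and 8.12 CPM (0.96 ± 0.18, adjusted p = 0.00871). Cd200, a surface glycoprotein that dampens myeloid cells and is carried by endothelium as well as by T cells, was at 134, 183 and 159 against 109.5, 91 and 112 CPM (0.61 ± 0.12, adjusted p = 0.00778). None of these overlapped between the groups, nor did the next gene. Pou2af1, the B cell coactivator OCA-B, was at 34.4, 30.9 and 36.6 against 17.9, 14.7 and 22.2 CPM (0.89 ± 0.17, adjusted p = 0.00857). Of these 4 genes, each stayed called whichever library was left out. Cd200 is thus also an endothelial gene and Pou2af1 a B cell gene, and most members of those lists had fold changes above 0. Whether Cxcr5 came from T or B cells cannot be told from whole-lung RNA. The B cell genes Ms4a1 and Cd22, described below, rose too. The general T cell list gave no call. The part of other cell types in the count was not tested.

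Pdcd1, which encodes PD-1, was at 2.94, 2.97 and 10.4 CPM with anti-PD-1 and 1.25, 2.26 and 1.01 CPM in the controls. Anti-PD-1 library 3 stood far above the other 5. The gene rose 3.61-fold (1.85 ± 0.50, adjusted p = 0.0345), a call lost without anti-PD-1 library 3 or control 1, 2 or 3 (highest adjusted p = 0.154). Without anti-PD-1 library 3 its log2 fold change was 0.97. The antibody acts on the protein, so this transcript is no check of the treatment. Il21, the cytokine of follicular helper cells, was too low to be tested, with 15, 5 and 11 raw counts against 1, 4 and 3. Its receptor Il21r was at 19.5, 17.8 and 28.4 against 14.9, 15.1 and 19.6 CPM (0.41 ± 0.22, adjusted p = 0.232) and the groups overlapped. Of 16 receptors, cytokines and signal carriers of the common gamma chain family, to which IL-21 belongs, 3 rose (4, 1, 1, 2, 0 and 3 in the refits, none in all 6). In that list 1 fell (0, 0, 0, 2, 0 and 0 in the refits, none in all 6), and the median was 0.002.

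Among 12 checkpoint receptors and ligands, 3 rose (2, 3, 1, 1, 1 and 2 in the refits, 1 in all 6) and none fell. Besides Pdcd1 these were Ctla4 and Lag3. Ctla4, the inhibitory receptor of activated and regulatory T cells, was at 17, 20.2 and 32.6 CPM with anti-PD-1 and 9.24, 12.9 and 11.5 CPM in the controls (1.05 ± 0.22, adjusted p = 0.0129) and did not overlap. Lag3, an inhibitory receptor that binds MHC class II, was at 9.07, 6.49 and 20.9 against 6.03, 5.02 and 4.06 CPM (1.26 ± 0.36, adjusted p = 0.0408), with library 3 again the highest. The Lag3 call was lost without anti-PD-1 library 1 or 3 or control 1, 2 or 3 (highest adjusted p = 0.161), and without library 3 of anti-PD-1 its log2 fold change was 0.63. Cd274, which encodes the ligand PD-L1, ran from 52.4 to 109 CPM against 36.1 to 86.8 CPM, and the groups overlapped (0.13 ± 0.32, adjusted p = 0.834).

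The general T cell list gave no call among 18 genes, and no member had groups that did not overlap. Its summed level was 232.0, 316.3 and 422.2 CPM with anti-PD-1 and 254.2, 362.5 and 277.2 CPM in the controls. B cell genes were all above 0 in fold change, 17 of 17, and 4 rose (0, 2, 0, 0, 0 and 4 in the refits, none in all 6, and 2 kept without the trend). Ms4a1, which encodes CD20, was at 87.8, 55.8 and 68.8 against 38.6, 25.3 and 49 CPM (0.91 ± 0.23, adjusted p = 0.0261), and Cd22, an inhibitory B cell lectin, was at 65.8, 52.6 and 66.9 against 33.5, 30.3 and 49.7 CPM (0.71 ± 0.18, adjusted p = 0.0269). The groups did not overlap for either gene. Both calls were lost without anti-PD-1 library 1 or 3 or control 1 or 2 (highest adjusted p = 0.087 for Ms4a1 and 0.0926 for Cd22), and that of Ms4a1 also after removal of the length and GC trend (0.0651). The summed level of the B cell list was 2288, 2117 and 2914 CPM with anti-PD-1 and 2536, 833.4 and 1477 CPM in the controls. The groups overlapped in this sum, and control 2 was the lowest library. Of 120 immunoglobulin variable segments tested, 15 rose (9, 12, 7, 12, 5 and 8 in the refits, 5 in all 6) and none fell. The 120 are those left of 346 segment names after the filter on low counts and removal of segments annotated as pseudogenes. A segment that is high in a single group can pass the filter through that group alone. Ighv1-4, which was called, was at 1.22, 0.553 and 4.49 CPM with anti-PD-1 and 0.104, 0.226 and 0.321 CPM in the controls. The count is therefore a description of the segments kept. These segments share sequence, so the reads of close copies may be split between them.

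Interferon gamma response genes rose in part. Of 21 tested, 7 rose (6, 5, 3, 2, 3 and 3 in the refits, 2 in all 6, and 5 kept without the trend) and none fell, though 1 was called lower without anti-PD-1 library 3. Over the list the median log2 fold change was 0.916, and for 12 of 21 the groups did not overlap with anti-PD-1 higher, beside 16.1% of all genes. Ubd, a ubiquitin-like modifier induced by interferon gamma and tumour necrosis factor, was at 4.07, 5.28 and 12.7 CPM with anti-PD-1 and 1.87, 1.64 and 1.18 CPM in the controls and rose 4.67-fold (2.23 ± 0.40, adjusted p = 0.00738). Ciita, the master activator of MHC class II genes, was at 29.5, 30.2 and 42.4 against 9.4, 16.8 and 16.9 CPM and rose 2.37-fold (1.24 ± 0.23, adjusted p = 0.00745). Neither overlapped, and both held in every refit without 1 library. Ifng itself was at 1.97, 1.66 and 3.34 against 1.71, 6.88 and 1.6 CPM, with control 2 the highest of the 6 libraries, and did not pass (-0.54 ± 0.51, adjusted p = 0.514).

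For 3 more of these calls, leaving out 1 library could end the call. Cxcl9, a chemokine for CXCR3-bearing T cells, was at 20.1, 14 and 120.5 CPM with anti-PD-1 and 4.42, 5.75 and 3.1 CPM in the controls, and library 3 of anti-PD-1 alone was near 120 CPM. It rose 11.6-fold (3.54 ± 0.82, adjusted p = 0.0273) and its call was lost without control 1, 2 or 3 (highest adjusted p = 0.0972), and without anti-PD-1 library 3 its log2 fold change was 1.95. Irgm2 and Gbp7 encode interferon-inducible GTPases that attack pathogen vacuoles. Irgm2 was at 52.9, 56.3 and 83.6 against 22.5, 28 and 24.4 CPM (1.36 ± 0.30, adjusted p = 0.0187), a call lost without anti-PD-1 library 3 or control 1 or 2 (highest adjusted p = 0.0726). Gbp7 was at 48.4, 56.6 and 72.8 against 22.1, 29.1 and 22.4 CPM (1.27 ± 0.35, adjusted p = 0.0396), a call lost whichever library was left out (up to 0.141) and also after removal of the length and GC trend (adjusted p = 0.0588). For Cxcl9, Irgm2 and Gbp7 all anti-PD-1 libraries lay above all controls.

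The bases just before the transcription starts of Irgm2 and Gbp7 are shown because interferons act through short elements of the kind searched for here. They are the 250 bases upstream of the RefSeq start on GRCm38.p6, 5′ to 3′ on the gene's strand. Irgm2 lies on the plus strand at chr11:58214727-58214976 and Gbp7 on the plus strand at chr3:142530086-142530335. Capitals mark matches on either strand to the gamma-activated site TTCNNNGAA or the interferon-stimulated element TTCNNTTTC, which occur in 7.02% and 7.13% of 32851 promoter windows of this length.
Irgm2: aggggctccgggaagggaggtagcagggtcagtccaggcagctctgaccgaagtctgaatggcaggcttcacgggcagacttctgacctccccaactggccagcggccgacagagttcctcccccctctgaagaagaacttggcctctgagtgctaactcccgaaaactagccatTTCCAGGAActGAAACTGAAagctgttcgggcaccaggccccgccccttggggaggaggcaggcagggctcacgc
Gbp7: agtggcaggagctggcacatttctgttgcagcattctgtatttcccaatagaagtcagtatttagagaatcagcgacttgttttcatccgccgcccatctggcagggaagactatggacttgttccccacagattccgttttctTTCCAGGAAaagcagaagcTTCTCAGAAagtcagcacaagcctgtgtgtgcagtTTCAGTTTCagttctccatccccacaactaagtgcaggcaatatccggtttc
Irgm2 holds 1 match to each separated by 2 bases, and Gbp7 holds 2 gamma-activated matches and 1 interferon-stimulated match. Sele, an adhesion gene that was lower with anti-PD-1, also holds 1 match to each. Cxcl9 holds 1 interferon-stimulated match and no gamma-activated one, and Ubd and Cxcl13 hold neither. A match describes these letters and is not a bound site.

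Few antigen presentation genes were called, and the counts are to be read beside the 5.34% of all genes called higher. Of 11 MHC class II genes, Ciita alone rose (1, 1, 1, 1, 1 and 2 in the refits, 1 in all 6). It is also a member of the interferon gamma list. The fold changes of 11 of 11 were above 0, from 0.09 to 1.24. Of 14 MHC class I genes, Nlrc5, the class I activator, and Erap1, an aminopeptidase that trims peptides, rose (2, 1, 0, 1, 0 and 1 in the refits, none in all 6, and 1 kept without the trend) and none fell. Nlrc5 was at 47.2, 51.2 and 72 CPM with anti-PD-1 and 29, 36.8 and 33.3 CPM in the controls (0.78 ± 0.20, adjusted p = 0.0273), lost without anti-PD-1 library 2 or 3 or control 1, 2 or 3 (highest adjusted p = 0.102) and after removal of the length and GC trend (0.0568). Erap1 was at 50.5, 45 and 59.4 against 30.7, 36.6 and 36.9 CPM (0.57 ± 0.14, adjusted p = 0.021), lost without anti-PD-1 library 3 or control 2 (highest adjusted p = 0.0824). The type I interferon list had 1 call among 20, Ddx58, the RNA sensor RIG-I, at 49.2, 48.4 and 52.2 against 32.1, 34.1 and 37.1 CPM (0.54 ± 0.09, adjusted p = 0.00604), which held in every refit without 1 library.

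Chemokines that attract neutrophils fell with anti-PD-1. Of 6 tested, Cxcl1, Cxcl2 and Cxcl3 fell, none rose, and the median log2 fold change was -1.567. Cxcl1 was at 8.9, 10.1 and 11.3 CPM with anti-PD-1 and 47.5, 44.1 and 53.6 CPM in the controls, 4.81-fold lower (-2.27 ± 0.24, adjusted p = 0.00127). Its groups lay far apart, with little spread in either. Cxcl2 was at 107, 143 and 127 against 272, 651 and 588 CPM (-2.0 ± 0.26, adjusted p = 0.00319), and Cxcl3 at 3.36, 2.26 and 5.09 against 7.74, 20.2 and 22.6 CPM (-2.24 ± 0.40, adjusted p = 0.00745). Control 1 was the lowest control for both, yet above every anti-PD-1 library. All 3 calls held in every refit without 1 library. Cxcl1 and Cxcl2 also stayed called with a clock gene score as covariate, which is described with the clock genes.

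Il6, the acute-phase cytokine, was at 13.7, 19 and 14.1 against 27.8, 76 and 47.6 CPM (-1.7 ± 0.37, adjusted p = 0.0193), lost without anti-PD-1 library 1 or 3 or control 2 (highest adjusted p = 0.0712). All anti-PD-1 libraries lay below all controls. The sequences before the starts of the 3 chemokine genes and Il6 are shown because each holds a match to an NF-kB site. They are 250 bases upstream of the RefSeq start on GRCm38.p6, plus strand, at chr5:90890995-90891244 (Cxcl1), chr5:90903649-90903898 (Cxcl2), chr5:90785851-90786100 (Cxcl3) and chr5:30012864-30013113 (Il6). Capitals mark the match to the NF-kB site, searched on both strands.
Cxcl1: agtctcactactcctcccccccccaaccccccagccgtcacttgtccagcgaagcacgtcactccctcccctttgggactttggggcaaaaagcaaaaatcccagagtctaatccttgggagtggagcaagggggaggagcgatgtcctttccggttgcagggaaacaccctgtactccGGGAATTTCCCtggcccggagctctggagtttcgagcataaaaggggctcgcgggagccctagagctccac
Cxcl2: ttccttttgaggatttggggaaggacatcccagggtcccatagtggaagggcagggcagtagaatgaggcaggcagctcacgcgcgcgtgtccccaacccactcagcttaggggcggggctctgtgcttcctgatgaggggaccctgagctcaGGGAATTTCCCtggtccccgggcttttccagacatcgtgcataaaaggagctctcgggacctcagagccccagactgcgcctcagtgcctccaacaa
Cxcl3: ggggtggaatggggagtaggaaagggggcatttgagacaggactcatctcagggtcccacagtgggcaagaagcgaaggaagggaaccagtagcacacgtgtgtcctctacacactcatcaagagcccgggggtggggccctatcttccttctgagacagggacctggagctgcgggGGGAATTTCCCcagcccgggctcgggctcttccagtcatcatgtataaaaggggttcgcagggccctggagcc
Il6: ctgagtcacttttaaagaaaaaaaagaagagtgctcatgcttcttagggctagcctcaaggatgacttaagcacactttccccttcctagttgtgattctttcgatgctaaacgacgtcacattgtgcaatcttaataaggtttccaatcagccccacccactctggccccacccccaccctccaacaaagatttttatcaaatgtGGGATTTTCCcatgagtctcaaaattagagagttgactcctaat
In the 3 chemokine genes, neighbours on chromosome 5, the capitals span the same 11 bases, which read as a match on each strand, while Il6 holds 1 match. Of all 32851 windows of this length 7.25% hold a match. Sele and Selp hold none, and Ubd holds 1. The motif was chosen after the values were seen, and a match is not a bound site.

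The wider list of proinflammatory cytokines and NF-kB targets had 7 lower calls (2, 4, 2, 12, 4 and 5 in the refits, 2 in all 6) and no higher one among 19, with a median of -0.657. Selp, the adhesion molecule P-selectin of endothelium and platelets, was at 12.8, 13.3 and 10.8 CPM with anti-PD-1 and 26.3, 37.7 and 33.1 CPM in the controls, 2.63-fold lower (-1.4 ± 0.20, adjusted p = 0.00407). Nfkbia, the inhibitor that NF-kB induces on itself, was at 286, 287 and 265 against 410.1, 411 and 539 CPM (-0.7 ± 0.12, adjusted p = 0.00636). Neither overlapped, and both held in every refit without 1 library. Sele, E-selectin of activated endothelium, was at 6.01, 4.53 and 5.49 against 10.3, 23.5 and 30.8 CPM (-2.01 ± 0.45, adjusted p = 0.0191), lost without anti-PD-1 library 1, 2 or 3 or control 2 (highest adjusted p = 0.0685). Il1b, interleukin 1 beta, was at 319.7, 415 and 360.4 against 484, 886 and 807 CPM (-0.99 ± 0.21, adjusted p = 0.0149), lost without anti-PD-1 library 1 or 3 or control 2 (highest adjusted p = 0.0584). All anti-PD-1 libraries were below all controls for both genes.

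Neutrophil genes fell in part. Of 18 tested, 8 fell (5, 7, 3, 9, 4 and 8 in the refits, 3 in all 6) and none rose, the median log2 fold change was -0.958 and 17 of 18 were below 0. S100a9, a calcium-binding alarmin of neutrophils and monocytes, was at 325, 386 and 269 CPM with anti-PD-1 and 813, 1024 and 753 CPM in the controls (-1.4 ± 0.21, adjusted p = 0.00472). Its partner S100a8 was at 205, 224 and 169.5 against 512, 635 and 420.4 CPM (-1.39 ± 0.25, adjusted p = 0.00745). Il1r2, the decoy receptor for interleukin 1, was at 53.3, 92.9 and 48.6 against 139.9, 243 and 163 CPM (-1.49 ± 0.24, adjusted p = 0.00581). The groups did not overlap, and these 3 calls held in every refit without 1 library. The 10 uncalled members include granule genes made in the bone marrow, such as Mpo, Elane, Ltf and Camp. Those 4 also had fold changes below 0, and the list ran from -1.614 to 0.262, so an uncalled member is not an unmoved one. The summed level of the list was 1138 to 1419 CPM with anti-PD-1 and 2333 to 4021 CPM in the controls, highest in control 2.

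**Figure D3:**
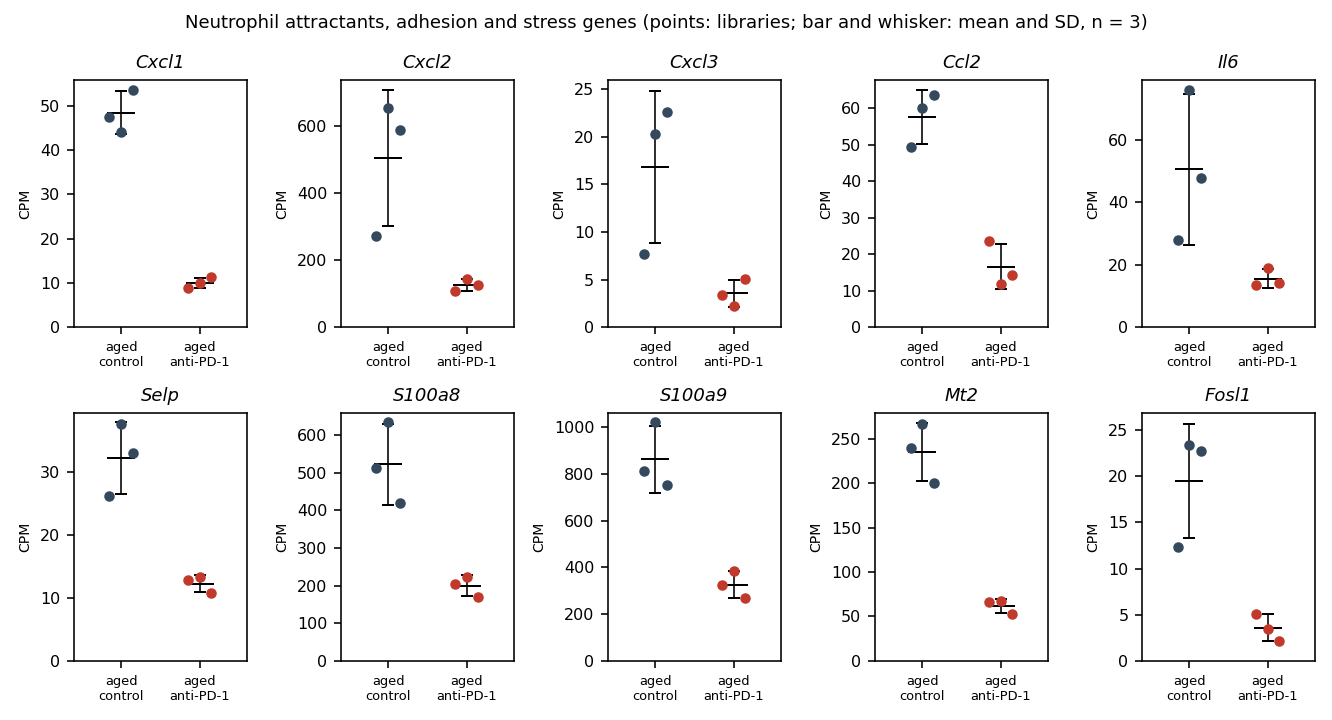
Level in CPM of 10 genes of neutrophil attraction, adhesion and stress in each library of aged control (dark) and aged anti-PD-1 (red) lungs; horizontal bars and whiskers are mean and SD of 3 libraries. For every gene the highest anti-PD-1 library lies below the lowest control, as for Cxcl1 with 8.90 to 11.3 CPM against 44.1 to 53.6 CPM.

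Monocyte chemokines went both ways: of 15 CC chemokine and receptor genes, 3 rose (2, 3, 1, 3, 1 and 1 in the refits, 1 in all 6) and 4 fell (2, 1, 2, 5, 2 and 3 in the refits, 1 in all 6). Ccl2, the main attractant of CCR2-bearing monocytes, was at 23.6, 11.9 and 14.4 CPM with anti-PD-1 and 49.3, 59.9 and 63.6 CPM in the controls, 3.45-fold lower (-1.79 ± 0.21, adjusted p = 0.00177). Ccl12, its close mouse relative, was at 4.2, 3.42 and 5.14 against 1.3, 1.86 and 1.66 CPM, 2.65-fold higher (1.4 ± 0.26, adjusted p = 0.00745). No overlap was seen for either gene, and both calls held in every refit without 1 library. Ccl8 was at 34.6, 21.2 and 69.3 against 11.8, 9.59 and 4.22 CPM (2.29 ± 0.52, adjusted p = 0.0239), with anti-PD-1 library 3 the highest. That call was lost without anti-PD-1 library 3 or control 2 or 3 (highest adjusted p = 0.0882).

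Of 18 genes of monocytes and interstitial macrophages, 5 rose (1, 4, 1, 2, 2 and 1 in the refits, 1 in all 6, and 4 kept without the trend) and none fell. Lyve1, a hyaluronan receptor of perivascular macrophages and lymphatic endothelium, was at 295, 253 and 264 CPM with anti-PD-1 and 158, 139 and 159 CPM in the controls (0.83 ± 0.12, adjusted p = 0.00407). The groups lay well apart, and the call held in every refit without 1 library. C1qc, a chain of the first complement component made by macrophages, was at 80.0, 49.8 and 119.5 against 45, 46.2 and 30.2 CPM (1.04 ± 0.25, adjusted p = 0.0245), lost without anti-PD-1 library 1 or 3 or control 1, 2 or 3 (highest adjusted p = 0.0748), with a log2 fold change of 0.68 without anti-PD-1 library 3. Cd163, the haemoglobin scavenger receptor, was at 8.27, 7.49 and 9.92 against 3.32, 6.49 and 3.79 CPM (0.92 ± 0.25, adjusted p = 0.0335), lost without anti-PD-1 library 1, 2 or 3 or control 1 or 3 (up to 0.11) and after removal of the length and GC trend (0.0503). Ace, the angiotensin-converting enzyme, listed here as a monocyte gene but carried in lung mainly by capillary endothelium, was at 727, 787 and 673 against 545, 368 and 526 CPM (0.6 ± 0.17, adjusted p = 0.0393), lost without anti-PD-1 library 1, 2 or 3 or control 2 or 3 (highest adjusted p = 0.135). Ace and Lyve1 are thus also endothelial genes, and the endothelial lists described below moved the same way in these libraries; their part in the count was not tested. Among 13 dendritic cell genes 2 rose (2, 1, 1, 2, 1 and 2 in the refits, 1 in all 6) and 3 fell (1, 2, 1, 2, 1 and 2 in the refits, 1 in all 6, and 1 kept without the trend). Clec9a, of conventional dendritic cells that take up dead cells, was at 20.1, 25.9 and 25.2 against 14.2, 7.17 and 11.5 CPM (1.11 ± 0.22, adjusted p = 0.00994). Siglech, of plasmacytoid dendritic cells, was at 2.27, 4.53 and 3.44 against 9.82, 8.29 and 12.4 CPM (-1.58 ± 0.29, adjusted p = 0.00726). Clec9a was higher and Siglech lower in all 3 anti-PD-1 libraries than in all controls, and both calls held in every refit without 1 library.

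Metallothionein and metal response genes fell in part. Mt2, which encodes a small protein that binds zinc and copper, was at 66.4, 67 and 52.7 CPM with anti-PD-1 and 239, 266 and 201 CPM in the controls, 3.8-fold lower (-1.93 ± 0.19, adjusted p = 0.00045). Mt1 was at 115, 162 and 122 against 316, 364 and 248 CPM (-1.22 ± 0.23, adjusted p = 0.00802). Both were low in all anti-PD-1 libraries. The antisense model RP23-98C9.5 overlaps Mt2 and had nearly the same level in each library, so reads of the 2 cannot be told apart and its own call is uncertain. Of the 10 genes in this list 5 fell (3, 4, 4, 6, 3 and 4 in the refits, 3 in all 6, and 4 kept without the trend) and none rose, among them Srxn1, which repairs oxidised peroxiredoxins, at 51.7, 46.1 and 50.3 against 70.4, 95.8 and 74.5 CPM (-0.7 ± 0.14, adjusted p = 0.011).

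Fosl1, an AP-1 subunit, was at 5.12, 3.47 and 2.19 CPM with anti-PD-1 and 12.3, 23.4 and 22.8 CPM in the controls, 5.36-fold lower (-2.42 ± 0.30, adjusted p = 0.00242). It was 1 of 2 lower calls (1, 3, 2, 6, 1 and 1 in the refits, 1 in all 6) among 20 immediate early genes, none of which was called higher. The median of that list was -0.18. Chac1, which breaks down glutathione and is switched on by ATF4, was at 2.73, 2.61 and 2.34 against 6.75, 7.17 and 6.89 CPM (-1.43 ± 0.18, adjusted p = 0.00242). Atf4 was at 319, 316 and 288 against 473, 459 and 467 CPM (-0.6 ± 0.12, adjusted p = 0.0122), lost without anti-PD-1 library 3 (adjusted p = 0.0504). Among 20 genes of the unfolded protein response 3 fell (2, 3, 1, 2, 2 and 3 in the refits, 1 in all 6, and 2 kept without the trend). In that list 1 rose (0, 0, 0, 1, 0 and 0 in the refits, none in all 6), and the median was -0.081. Of 19 heat shock and chaperone genes 1 rose (0, 2, 0, 0, 0 and 1 in the refits) and 1 fell (1, 0, 0, 0, 0 and 1 in the refits). Neither call passed in all 6 or was kept without the trend, and the median was -0.113. Over all genes 5.34% were called higher and 5.58% lower. Gfpt2, an enzyme of the hexosamine pathway, was at 16.3, 14.4 and 13.6 against 42.8, 68.7 and 54.6 CPM, 3.73-fold lower (-1.9 ± 0.18, adjusted p = 0.00045). None of these 4 overlapped between the groups. The calls of Mt1, Mt2, Srxn1, Fosl1, Chac1 and Gfpt2 held in every refit without 1 library.

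Glucose handling genes fell in part. Of 21 glycolysis and hypoxia genes 5 fell (4, 5, 3, 6, 1 and 5 in the refits, 1 in all 6) and none rose. Slc2a1, the glucose transporter GLUT1, was at 42.1, 44.5 and 43.4 CPM with anti-PD-1 and 58.7, 75.8 and 68.8 CPM in the controls (-0.65 ± 0.12, adjusted p = 0.0074) and held in every refit without 1 library. Hk2, an inducible hexokinase, was at 23.5, 25.8 and 25.6 against 34.2, 51.6 and 37.4 CPM (-0.72 ± 0.15, adjusted p = 0.0144), lost without control 2 (adjusted p = 0.0578). The groups did not overlap for either gene.

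Endothelial genes rose in part. Of 18 genes of blood endothelium 9 rose (3, 4, 6, 14, 3 and 5 in the refits, 3 in all 6, and 7 kept without the trend) and Selp alone fell, the median log2 fold change was 0.715 and 17 of 18 were above 0. Pecam1, the junction protein CD31, was at 528, 611 and 518 CPM with anti-PD-1 and 362, 286 and 351 CPM in the controls (0.73 ± 0.14, adjusted p = 0.00857). Ptprb, the endothelial phosphatase that acts on TIE2, was at 446, 479 and 423 against 282, 195 and 240.0 CPM (0.91 ± 0.17, adjusted p = 0.00788). Flt1, a VEGF receptor, was at 196, 209 and 188 against 139, 104 and 118 CPM (0.71 ± 0.14, adjusted p = 0.0104). None overlapped, control 2 was the lowest library for each, and these 3 calls held in every refit without 1 library. Cdh5, VE-cadherin, was at 442, 384 and 332 against 282, 184 and 239 CPM (0.72 ± 0.18, adjusted p = 0.0273), lost without anti-PD-1 library 1 or 2 or control 2 or 3 (highest adjusted p = 0.0964). Kdr, the main VEGF receptor, was at 163, 176 and 135 against 117, 78.9 and 117 CPM (0.6 ± 0.15, adjusted p = 0.0261), lost without anti-PD-1 library 1 or 2 or control 2 (up to 0.0903) and after removal of the length and GC trend (0.0651). With that trend removed the median was 0.672.

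Of 19 Wnt and Notch genes 6 rose (1, 3, 2, 5, 2 and 3 in the refits, 1 in all 6, and 5 kept without the trend). In that list 1 fell (0, 0, 0, 2, 0 and 0 in the refits, none in all 6), and the median was 0.104. Dll4, the Notch ligand of arterial and tip cells, was at 53, 51.1 and 44.1 CPM with anti-PD-1 and 27, 14.9 and 19.7 CPM in the controls, 2.4-fold higher (1.26 ± 0.22, adjusted p = 0.00738). Notch4, a receptor largely of endothelium, was at 83.8, 79.4 and 73.1 against 52.8, 24.1 and 36.7 CPM (1.05 ± 0.26, adjusted p = 0.0266), lost without anti-PD-1 library 1, 2 or 3 or control 2 or 3 (highest adjusted p = 0.0765). Hey1, a transcriptional repressor induced by Notch, was at 65.5, 82.5 and 65.9 against 55, 26.4 and 31.4 CPM (0.92 ± 0.24, adjusted p = 0.0316), lost without anti-PD-1 library 1, 2 or 3 or control 2 or 3 (highest adjusted p = 0.0999). All anti-PD-1 libraries lay above all controls for these 3 genes.

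Of 20 TGF-beta and BMP genes 5 rose (4, 4, 3, 5, 3 and 3 in the refits, 3 in all 6, and 4 kept without the trend). In that list 1 fell (0, 0, 0, 2, 0 and 0 in the refits, none in all 6), and the median was -0.028. Id1, a helix-loop-helix inhibitor that BMP receptors induce, was at 221, 127 and 196 CPM with anti-PD-1 and 65.3, 70.2 and 73 CPM in the controls, 2.61-fold higher (1.38 ± 0.21, adjusted p = 0.00522). The controls lay within 8 CPM of each other, and anti-PD-1 library 2 was the lowest of its group. Smad6, the feedback inhibitor of BMP signalling, was at 190.2, 119.9 and 149 against 68.7, 50.5 and 57 CPM (1.38 ± 0.22, adjusted p = 0.00581), and the ligand Bmp6 was at 88.4, 62.9 and 62.5 against 37.6, 38.2 and 44.2 CPM (0.83 ± 0.16, adjusted p = 0.00968). Neither overlapped. Dll4, Id1, Smad6 and Bmp6 held in every refit without 1 library.

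Of 17 VEGF, angiopoietin, semaphorin and ephrin factors 6 rose (4, 4, 3, 6, 1 and 6 in the refits, 1 in all 6, and 3 kept without the trend) and 1 fell (1, 1, 1, 1, 1 and 1 in the refits, 1 in all 6, and none kept without the trend), with a median of 0.206. Ephb4, a receptor of venous endothelium, was at 95, 98.1 and 80.4 CPM with anti-PD-1 and 64.2, 38.8 and 48.2 CPM in the controls (0.85 ± 0.18, adjusted p = 0.0127). Its arterial ligand Efnb2 was at 166, 126 and 119 against 86.4, 54.3 and 71 CPM (0.96 ± 0.20, adjusted p = 0.014), lost without control 2 (adjusted p = 0.0516). Of 16 genes of aerocytes, the capillary cells of gas exchange, and of venous or arterial endothelium, 6 rose (4, 2, 3, 8, 2 and 4 in the refits, 2 in all 6, and 5 kept without the trend). In that list 1 fell (0, 0, 0, 1, 1 and 0 in the refits, none in all 6). Ednrb, the endothelin B receptor, was at 61.5, 70.1 and 57.9 against 44.8, 33.5 and 40.7 CPM (0.67 ± 0.13, adjusted p = 0.00925). Slc6a2, the noradrenaline transporter that lung veins carry, was at 128, 124 and 118 against 82, 52.4 and 58.6 CPM (0.93 ± 0.14, adjusted p = 0.00407). Of 7 lymphatic endothelial genes 3 rose (2, 3, 3, 4, 1 and 3 in the refits, 1 in all 6, and 2 kept without the trend), Lyve1 among them. Prox1, the transcription factor of lymphatic identity, was at 6.59, 3.92 and 3.54 against 2.29, 1.47 and 2.56 CPM (1.15 ± 0.30, adjusted p = 0.0267), lost without anti-PD-1 library 1 or control 2 (highest adjusted p = 0.115) and after removal of the length and GC trend (0.0545). These 5 genes did not overlap between the groups, and Ephb4, Ednrb and Slc6a2 held in every refit without 1 library.

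Some of the smallest adjusted p-values belonged to genes outside the lists. Acer2, an alkaline ceramidase of the Golgi, was at 215, 226 and 214 CPM with anti-PD-1 and 113, 92.2 and 97.4 CPM in the controls (1.11 ± 0.11, adjusted p = 0.00045). Cd38, a surface enzyme that consumes NAD, was at 40.2, 41.5 and 41.3 against 19.7, 16.5 and 22.6 CPM (1.07 ± 0.12, adjusted p = 0.00177). Snrk, a kinase of the AMPK family, was at 89.7, 92.1 and 77.9 against 45.8, 47.4 and 48.5 CPM (0.87 ± 0.10, adjusted p = 0.00177). Slc16a9, of the monocarboxylate transporter family, was at 59.8, 64.6 and 63.5 against 33.8, 26.8 and 26.9 CPM (1.1 ± 0.14, adjusted p = 0.00197). The groups were far apart for each of the 4, and each held in every refit without 1 library and with the clock gene score as covariate.

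Genes with the largest fold changes were mostly at low levels. Ccr9, a homing receptor of gut T cells and plasmacytoid dendritic cells, was at 1.18, 2.41 and 1.5 CPM with anti-PD-1 and 4.78, 7.56 and 9.51 CPM in the controls, 4.31-fold lower (-2.11 ± 0.37, adjusted p = 0.00711). Slc22a14, of the organic ion transporter family, was at 0.42, 0.402 and 0.549 against 1.51, 2.48 and 2.89 CPM (-2.31 ± 0.33, adjusted p = 0.00407), and Ankrd63, an ankyrin repeat gene, at 6.64, 7.79 and 9.38 against 2.75, 1.64 and 2.03 CPM (1.88 ± 0.32, adjusted p = 0.00614). Of these, Ankrd63 was the higher one with anti-PD-1, and all 3 held in every refit without 1 library. Alb, the liver gene for albumin, was at 0.546, 3.37 and 7.38 against 0.519, 0.169 and 0.427 CPM (3.29 ± 0.82, adjusted p = 0.0261), lost without anti-PD-1 library 2 or 3 or control 1, 2 or 3 (highest adjusted p = 0.0992), and anti-PD-1 library 1 stood next to the controls. Lmnb1, a lamin of the nuclear envelope, was at 48.6, 52.6 and 46 against 69.3, 139.5 and 105 CPM (-1.09 ± 0.19, adjusted p = 0.00651) and held in every refit without 1 library. It was 1 of 5 lower calls (4, 3, 1, 3, 2 and 2 in the refits, 1 in all 6, and 2 kept without the trend) among 16 genes of cell cycle inhibition and senescence. Besides Lmnb1, the 1 that passed in all 6, these were Cdkn1a, Cdkn2b, Cdkn2d and Igfbp3. Lmnb1 is no cell cycle inhibitor and the list is mixed, so its count is not a reading of senescence. In that list 1 rose (0, 0, 0, 0, 0 and 1 in the refits, none in all 6, and none kept without the trend). Of 22 proliferation genes 1 rose (0, 1, 0, 1, 5 and 0 in the refits, none in all 6, and none kept without the trend), near the 5.34% of all genes called higher.

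**Figure D4:**
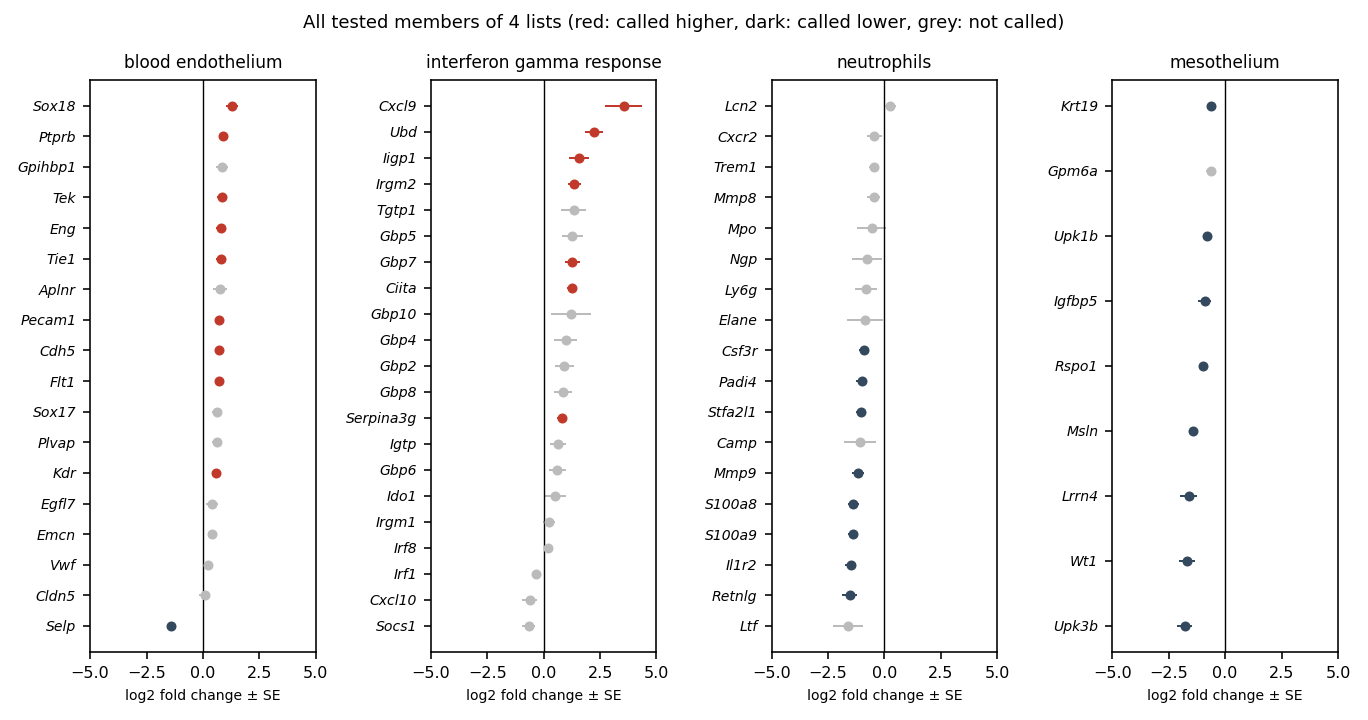
Log2 fold change ± SE (anti-PD-1 minus control, 3 libraries each) of every tested member of 4 lists; red points were called higher, dark points lower and grey points were not called. Blood endothelial genes lie right of 0 except Selp, mesothelial genes lie left of 0, and neutrophil genes lie left of 0 except Lcn2.

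Mesothelial genes fell. Of 9 tested, 8 fell (8, 4, 4, 7, 6 and 6 in the refits, 4 in all 6, and 7 kept without the trend) and the median log2 fold change was -0.971. Msln, mesothelin of the pleural lining, was at 47.9, 50.0 and 39 CPM with anti-PD-1 and 101, 119 and 148 CPM in the controls (-1.42 ± 0.20, adjusted p = 0.00407). Upk3b, a uroplakin used as a mesothelial marker, was at 34.7, 19.1 and 17.1 against 55.5, 74.5 and 117 CPM (-1.8 ± 0.34, adjusted p = 0.0113), and Upk1b at 21.9, 19.5 and 18.4 against 33.1, 34.2 and 36.8 CPM (-0.8 ± 0.14, adjusted p = 0.00614). Control 3 was the highest library for all 3 genes. Rspo1, a Wnt amplifier, was at 14.6, 15.6 and 11.5 against 24.2, 23.4 and 34.2 CPM (-0.97 ± 0.18, adjusted p = 0.00749). None of the 4 overlapped, and each held in every refit without 1 library. Wt1, a transcription factor of mesothelium, was at 4.24, 2.01 and 2.54 against 5.71, 9.31 and 13.4 CPM (-1.68 ± 0.36, adjusted p = 0.0152), lost without anti-PD-1 library 2 or 3 (highest adjusted p = 0.057). How much of the lining each piece of tissue held was not measured.

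Fibroblast and smooth muscle genes fell in part, while the pericyte gene Rgs5 rose. Of 16 fibroblast genes 6 fell (4, 5, 3, 5, 3 and 6 in the refits, 3 in all 6, and 4 kept without the trend) and none rose. Dcn, the matrix proteoglycan decorin, was at 506, 418 and 398 CPM with anti-PD-1 and 596, 865 and 684 CPM in the controls (-0.7 ± 0.14, adjusted p = 0.011), lost where only the 6 libraries were fitted. Pi16, of adventitial fibroblasts, was at 69.1, 68.3 and 59.8 against 98.7, 136 and 102 CPM (-0.78 ± 0.15, adjusted p = 0.00857), and Clec3b, tetranectin, at 155, 151 and 139 against 235, 268 and 209 CPM (-0.68 ± 0.13, adjusted p = 0.008). None overlapped. Of 22 collagen and matrix genes 1 rose (0, 1, 0, 3, 0 and 0 in the refits, none in all 6, and none kept without the trend) and none fell, with a median of 0.036. That count lies near the 5.34% of all genes called higher.

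Among 15 pericyte and smooth muscle genes 4 fell (3, 4, 3, 4, 3 and 5 in the refits, 3 in all 6) and 2 rose (1, 1, 2, 5, 1 and 1 in the refits, 1 in all 6). The contractile genes Acta2 (smooth muscle actin), at 179, 236 and 180.5 against 420.0, 378 and 314 CPM (-0.9 ± 0.15, adjusted p = 0.00581), and Cnn1 (calponin), at 59.1, 67.9 and 52.1 against 138, 116 and 107 CPM (-1.01 ± 0.17, adjusted p = 0.00608), fell. Actg2, an actin of visceral smooth muscle, was at 28.1, 29.4 and 22.3 against 70.8, 59.8 and 54.1 CPM (-1.21 ± 0.20, adjusted p = 0.00579). Control 1 was the highest library for all 3. Rgs5, a regulator of G protein signalling in pericytes, was at 29.1, 27.4 and 28.1 against 16.7, 10.7 and 16 CPM and rose 1.95-fold (0.96 ± 0.15, adjusted p = 0.00451). Notch3, a receptor of mural cells, was at 29.9, 23.8 and 21.7 against 18.6, 11.1 and 12.7 CPM (0.83 ± 0.20, adjusted p = 0.0234), lost without anti-PD-1 library 1 or 2 or control 2 or 3 (highest adjusted p = 0.0831). The groups did not overlap for any of the 5. The calls of Acta2, Cnn1, Actg2 and Rgs5 held in every refit without 1 library, as did Dcn, Pi16 and Clec3b.

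Epithelial genes outside the alveoli fell here and there. Of 18 genes of ciliated cells 5 fell (3, 5, 1, 6, 1 and 4 in the refits, 1 in all 6, and 3 kept without the trend) and none rose. For 10 of the 18 all anti-PD-1 libraries lay below all controls, beside 16.4% of all genes. Drc1, of the dynein regulatory complex of cilia, was at 19.2, 20.4 and 15.8 CPM with anti-PD-1 and 28.8, 33.1 and 28.5 CPM in the controls (-0.71 ± 0.12, adjusted p = 0.00675). Of 11 genes of basal and squamous epithelium 4 fell (3, 3, 4, 3, 3 and 3 in the refits, 3 in all 6, and 3 kept without the trend) and 1 rose (0, 1, 1, 1, 1 and 0 in the refits, none in all 6), all at low levels. Krt14, a basal keratin, was at 0.252, 0.453 and 0.299 against 0.987, 1.86 and 1.39 CPM (-2.07 ± 0.42, adjusted p = 0.0113). Sprr1a, a cornified envelope protein, was at 0.756, 0.201 and 0.499 against 2.39, 3.89 and 3.1 CPM (-2.64 ± 0.48, adjusted p = 0.00749), and Calml3, a calmodulin-like protein of epithelium, at 6.97, 6.33 and 4.44 against 15.6, 16 and 11.5 CPM (-1.28 ± 0.22, adjusted p = 0.00614). All 4 genes were lower in every anti-PD-1 library than in every control and held in every refit without 1 library.

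Platelet genes lay lower throughout, though few passed the test. Of 12 tested, 4 fell (3, 1, 1, 2, 1 and 6 in the refits, 1 in all 6, and 3 kept without the trend), with a median log2 fold change of -0.715. For 12 of 12 all anti-PD-1 libraries lay below all controls, beside 16.4% of all genes. Itgb3, the integrin chain of the fibrinogen receptor, was at 132, 105 and 99.1 CPM with anti-PD-1 and 202, 236 and 175 CPM in the controls (-0.87 ± 0.18, adjusted p = 0.0122) and held in every refit without 1 library. Gp1bb, of the von Willebrand factor receptor, was at 86.3, 58.3 and 61.6 against 177, 154 and 131 CPM (-1.16 ± 0.28, adjusted p = 0.0234), lost without anti-PD-1 library 2 or 3 or control 1 or 2 (highest adjusted p = 0.0827). Pf4, the granule chemokine, was at 164, 184 and 182 against 302, 282 and 207 CPM and did not pass (-0.57 ± 0.22, adjusted p = 0.109). The groups did not overlap for any of the 3. Haemoglobin reads were 1.107, 1.056 and 1.304% of the counts with anti-PD-1 and 1.986, 1.689 and 1.263% in the controls, and none of 10 erythroid genes was called. Whether the amount of blood in the tissue had a part in this was not tested.

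Ribosomal protein genes fell in part, by small amounts. Of 81 tested, 32 fell (3, 3, 14, 13, 3 and 17 in the refits, 1 in all 6, and 13 kept without the trend), none rose, and the median log2 fold change was -0.445. For 74 of the 81 all anti-PD-1 libraries lay below all controls, beside 16.4% of all genes. Rpl31 was at 487, 501 and 574 CPM with anti-PD-1 and 818, 798 and 739.8 CPM in the controls (-0.59 ± 0.12, adjusted p = 0.0132), and all anti-PD-1 libraries lay below all controls. It was the 1 of the 32 calls that held in every refit without 1 library. Of 91 nuclear genes of the respiratory chain 16 fell (3, 2, 4, 5, 2 and 20 in the refits, none in all 6, and 3 kept without the trend) and none rose, with a median of -0.303. The median exon length was 1739 bases in the ribosomal list and 1675 in the respiratory chain list. After removal of the length and GC trend 13 ribosomal and 4 respiratory chain genes were called lower, with medians of -0.328 and -0.223. The part of length in these changes was not tested. The 12 mitochondrially encoded protein genes had no call and a median of -0.017.

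Clock genes differed between the groups and within the anti-PD-1 group. Per3, a component of the circadian feedback loop, was at 17.2, 53.7 and 31.3 CPM with anti-PD-1 and 12.6, 7.45 and 11.3 CPM in the controls, and rose 3.26-fold (1.7 ± 0.34, adjusted p = 0.012), lost without control 2 (adjusted p = 0.0589). The anti-PD-1 libraries were spread far more widely than the controls, with library 2 the highest. Nr1d1, which encodes the repressor REV-ERB alpha, was at 132, 79 and 69.2 against 177, 150.0 and 158 CPM (-0.79 ± 0.22, adjusted p = 0.0406), lost without anti-PD-1 library 2 or 3 or control 1, 2 or 3 (highest adjusted p = 0.132) and after removal of the length and GC trend (0.064). Npas2, an activator that pairs with BMAL1, was at 5.25, 1.81 and 2.69 against 6.8, 7.84 and 6.41 CPM (-1.09 ± 0.28, adjusted p = 0.0276), lost without anti-PD-1 library 2 or 3 or control 2 (highest adjusted p = 0.0948). Of 6 activators 2 fell (3, 0, 0, 2, 0 and 1 in the refits, none in all 6, and 1 kept without the trend), and of 13 repressors and output factors 1 rose (6, 1, 1, 1, 0 and 1 in the refits, none in all 6) and 2 fell (1, 1, 0, 1, 0 and 1 in the refits, none in all 6, and 1 kept without the trend). For Per3, Nr1d1 and Npas2 the groups did not overlap.

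The window before Per3 is shown because it holds 2 D-boxes, an element of clock output. It is the 250 bases upstream of the RefSeq start, on the minus strand at chr4:151044666-151044915 of GRCm38.p6, 5′ to 3′ on the gene's strand. Capitals mark the 2 matches to TTANGTAA, which 2.06% of windows hold. The E-box CACGTG, held by 6.02%, has no match in it.
Per3: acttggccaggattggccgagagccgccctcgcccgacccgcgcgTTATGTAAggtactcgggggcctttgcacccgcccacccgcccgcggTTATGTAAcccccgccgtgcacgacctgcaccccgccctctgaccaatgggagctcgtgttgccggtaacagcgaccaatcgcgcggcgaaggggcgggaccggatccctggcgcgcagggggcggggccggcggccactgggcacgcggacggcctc
A match is a description and not a bound site.

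A clock score, the mean log2 CPM of 3 activators minus that of 9 repressors and output factors, was -1.429, -3.369 and -2.542 with anti-PD-1 and -1.284, -1.295 and -1.408 in the controls. All anti-PD-1 libraries lay below all controls, but library 1 (-1.429) stood next to control 3 (-1.408), and only libraries 2 and 3 lay far below. Per3, Nr1d1 and Npas2 are among the genes the score is made of. A fit that also carried this score left 54 calls (28 higher, 26 lower), and of the 113 called genes named in the report and after it 20 stayed called. Among those were Cxcl1 (adjusted p = 0.0168), Mt2 (0.0211), Gfpt2 (0.0211), Ccl2 (0.0315), Lyve1 (0.0315), Id1 (0.00506), Smad6 (0.0211), Acer2 (0.018) and Acta2 (0.0445). No member stayed called in the follicular helper, interferon gamma, blood endothelial, mesothelial, proinflammatory, platelet, fibroblast or B cell lists. Of 18 neutrophil genes 1 stayed called lower, as did 2 of 6 neutrophil-attracting chemokines, and 3 of 20 TGF-beta and BMP genes stayed called higher. The score differs between the groups, so such a fit cannot tell the score and the treatment apart where they move together. The hour at which the lungs were taken is not given in the sources used here, and its part in the results was not tested.

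The 2 other groups give levels beside these. Because they share the anti-PD-1 treatment, and the tests would share libraries, their levels are set out with no test. Cxcl1 was at 15.5 ± 2.61 CPM (SD, n = 3) in young mice on anti-PD-1 and 41.2 ± 14.9 CPM in aged mice on anti-PD-1 with anti-IL-21R, beside 10.1 ± 1.18 CPM in aged mice on anti-PD-1 and 48.4 ± 4.83 CPM in aged controls. Mt2 was at 98 ± 18.3 CPM in the young and 233 ± 58.5 CPM with both antibodies, beside 62 ± 8.09 and 235 ± 32.9 CPM. For both genes the mean with both antibodies lay near that of the aged controls.

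For Cxcl13 the means were 3.35 ± 0.579 CPM in the young, 11.8 ± 2.82 CPM with both antibodies, 38.2 ± 18.5 CPM with anti-PD-1 alone and 11.6 ± 4.41 CPM in the controls. For Id1 they were 57.7 ± 6.31, 54.6 ± 15.4, 181 ± 48.6 and 69.5 ± 3.9 CPM in the same order. Both were highest in aged mice on anti-PD-1 alone. Cxcr5 differed from this: it was at 19.8 ± 5.07 CPM with both antibodies, close to 21.2 ± 0.416 CPM with anti-PD-1 alone and above 10.4 ± 3.06 CPM in the controls. The B cell gene Ms4a1 had the same order, at 60.2 ± 13.5, 70.8 ± 16.1 and 37.7 ± 11.9 CPM. Which cells carried Cxcr5 was not tested. Msln was at 139 ± 39.3 CPM in the young and 68.8 ± 7.1 CPM with both antibodies, beside 45.6 ± 5.8 and 122 ± 23.5 CPM.

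**Figure D5:**
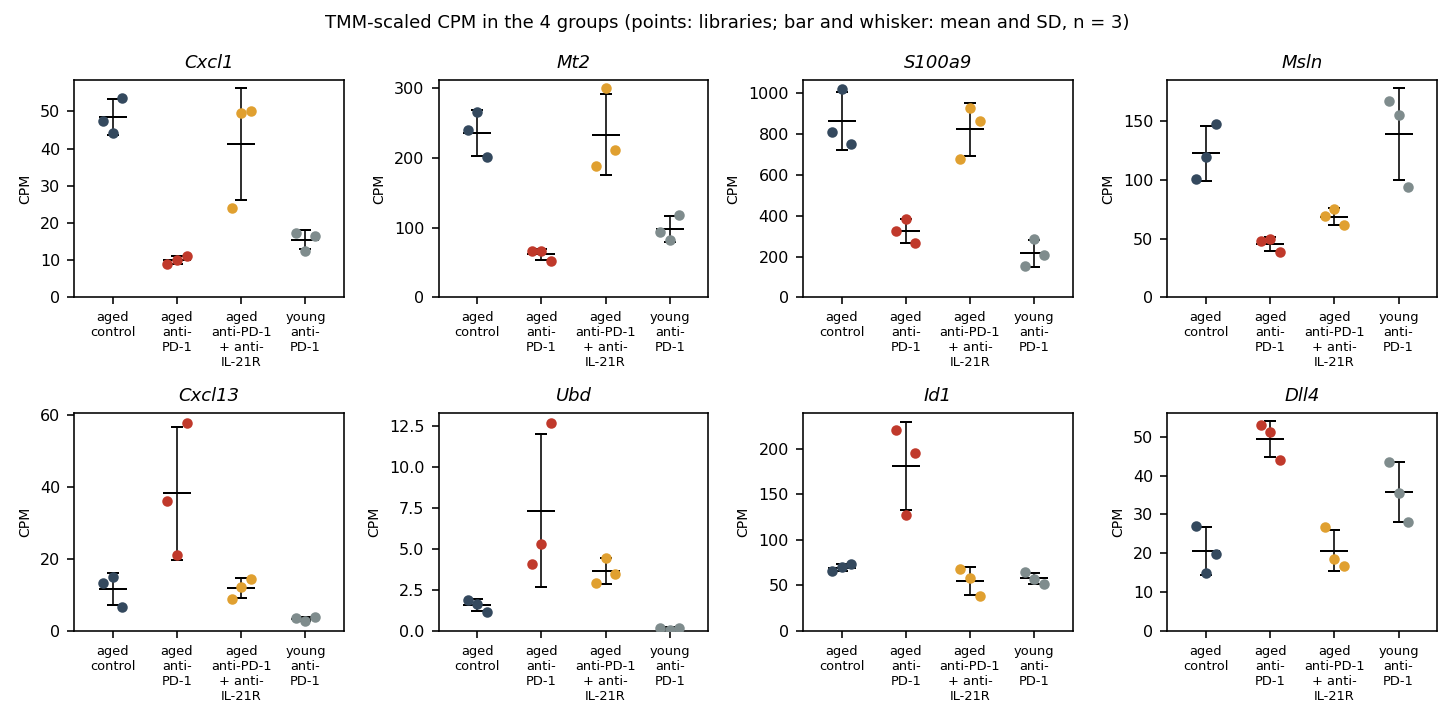
Level in CPM of 8 genes in the 4 groups of the series: aged control (dark), aged anti-PD-1 (red), aged anti-PD-1 with anti-IL-21R (yellow) and young anti-PD-1 (grey). Points are libraries, horizontal bars and whiskers are mean and SD of 3, and for Cxcl1, Mt2 and S100a9 the group given both antibodies stands at or near the level of the aged controls.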

How the data were processed

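RNA from whole lungs was poly(A) selected and made into directional libraries, per the labels' protocols. The values are raw read counts per gene as the authors deposited them, 1 column per library, with no normalization. The submitters' processing notes name featureCounts 1.6.3, HISAT2, Trimmomatic, bcl2fastq 1.8.4 and the build mm10; the options, annotation release and strand setting are not given in the sources used here.

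Genes were kept by filterByExpr by group (minimum count 10, minimum total 15). An edgeR 4.0.16 quasi-likelihood model (robust, TMM, R 4.3.3) of 4 group means took all 12 libraries (8 residual degrees of freedom, common biological coefficient of variation 0.156). It was tested on simulated data. Each SE was derived from the fold change and its F statistic (size of the change over the root of F). An exact permutation test of 3 against 3 libraries cannot go below p = 0.1, so single genes were tested through the fit.

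The groups, the 69 gene lists and the alternatives were chosen with earlier results of these data known. The naming rule took Cxcl13, Cxcr5, Il21, Il21r, Pdcd1 and Cd274, the largest changes in each direction (10 each, average log2 CPM of at least 0, no overlap, no predicted genes or receptor segments), the 10 with the smallest adjusted p, and up to 5 called members of each list (or 2 if none); a selection is printed, and 1 gene was left out of its list and is not reported here. Alternatives used DESeq2 1.42.0, limma 3.58.1 (voom), other scalings and filters, fewer libraries, the replicate number as a block and a clock score; a correction for the length and GC content of exons (from GENCODE M21, for 99.8% of genes) was added after the data were seen. Promoter windows come from RefSeq (GRCm38.p6). Replicate libraries differed beyond counting noise, with a chi-square per degree of freedom of 16.2 to 46.5, and none was a copy of another.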

Additional observations from a re-analysis of the deposited data

How the results depend on the processing

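The 2025 calls became 1998 with RLE size factors, 2006 with TMM computed without immunoglobulin, haemoglobin and mitochondrial genes, 2058 with limma-voom, 2061 with a mean CPM of at least 1, 1847 without a filter and 2999 with DESeq2. With library totals alone 1400 were higher and 559 lower (71.5% higher, beside 48.9%), since this scaling shifted the median of all genes by 0.107 on the log2 scale. A fit of only the 6 libraries called 881 (508 higher, 373 lower), with fewer samples behind each spread. The clock score as covariate left 54 (28 higher, 26 lower), and removal of the length and GC trend left 617 higher calls, and in both the cause was not tested. Leaving out 1 library gave 607 to 1995 calls, 304 to 932 higher and 303 to 1063 lower.

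No pairing of libraries by replicate number was seen: residuals of same-numbered libraries correlated at -0.0596, -0.169 and 0.0356, and no anti-PD-1 library correlated best with its own number. With 3 libraries a group this cannot exclude a pairing. With the number as a block 1702 genes were called, 862 higher and 840 lower. No named gene changed direction under any setting except Cd274, at -0.23 without anti-PD-1 library 3 and -0.18 without control 1 (up to 0.33 over the 6 refits), and Ifng, at 0.48 without control 2 (down to -0.89). None of these was called. Among named genes, the calls of Alb, C1qc, Ccl8, Cxcl9, Cxcl13, Gbp7, Gp1bb, Hey1, Il6, Irgm2, Lag3, Ms4a1, Nlrc5, Notch4, Nr1d1, Pdcd1 and Sele were lost without a filter, and those of Ace, Alb, C1qc, Cd163, Cd22, Cxcl9, Dcn, Hey1, Kdr, Lag3, Ms4a1, Notch3, Npas2, Nr1d1, Pdcd1 and Prox1 in the fit of 6 libraries. Under limma-voom Alb, Cxcl9, Lag3 and Pdcd1 were lost, under the block Ccl8, Cxcl9, Lag3 and Nr1d1, and under library totals Nr1d1. Depth limits the genes below about 1 CPM, such as Il21.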

Other observations

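The genes in this section were chosen after their values were seen and belong to none of the lists described above. Several lower calls concern myeloid growth and activation. Cebpb, a transcription factor of emergency granulopoiesis, was at 366, 242 and 275 CPM with anti-PD-1 and 558, 784 and 708 CPM in the controls (-1.22 ± 0.18, adjusted p = 0.00431). Csf1, the macrophage growth factor, was at 61.6, 80.1 and 58.3 against 124, 213 and 165 CPM (-1.33 ± 0.21, adjusted p = 0.00552). Osm, oncostatin M, was at 46, 54.4 and 47.8 against 73.4, 232 and 140.2 CPM (-1.59 ± 0.31, adjusted p = 0.0122). Acod1, which makes itaconate in activated macrophages, was at 34.5, 58.3 and 39.7 against 70.7, 153 and 169.9 CPM (-1.57 ± 0.28, adjusted p = 0.00745). F3, tissue factor, was at 88.3, 88.7 and 60.6 against 184, 179 and 174 CPM (-1.18 ± 0.19, adjusted p = 0.00581). Bcl3, an atypical inhibitor of the NF-kB family, was at 23.2, 20.7 and 23.8 against 39.2, 41.5 and 43 CPM (-0.87 ± 0.12, adjusted p = 0.0037), and Tnfsf14, the cytokine LIGHT, at 3.91, 6.59 and 5.04 against 9.14, 15.1 and 12 CPM (-1.22 ± 0.21, adjusted p = 0.00614). Has1, a hyaluronan synthase, was at 8.11, 10.5 and 4.99 against 23.1, 28 and 24.4 CPM (-1.68 ± 0.28, adjusted p = 0.00614). The 3 stress-inducible genes Gadd45a (-1.07 ± 0.16), Gadd45b (-1.24 ± 0.21) and Gadd45g (-1.32 ± 0.22) fell together on the log2 scale. All anti-PD-1 libraries lay below all controls for each of these genes.

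Higher calls included endothelial and perivascular regulators. Foxf1, a transcription factor of lung endothelium and mesenchyme, was at 251, 226 and 210.2 CPM with anti-PD-1 and 130.5, 93.3 and 117 CPM in the controls (1.01 ± 0.15, adjusted p = 0.00431). Tmem100, an endothelial gene downstream of ALK1, was at 340.5, 400.1 and 398 against 213, 126 and 168 CPM (1.17 ± 0.19, adjusted p = 0.00581). Sox7 was at 75.1, 78.1 and 65.4 against 45, 31.9 and 41.1 CPM (0.89 ± 0.13, adjusted p = 0.00407). Clec1a, a C-type lectin of endothelium, was at 89.9, 112 and 102 against 49.2, 40.1 and 54.1 CPM (1.08 ± 0.16, adjusted p = 0.00407), and Gimap8, a GTPase of the immunity-associated family, at 57.7, 62 and 65.9 against 28.9, 25.6 and 35.4 CPM (1.05 ± 0.14, adjusted p = 0.0036). None overlapped between the groups. The calls of every gene in this section held in each refit without 1 library, and those of Gadd45a, Tnfsf14 and Foxf1 also held with the clock score as covariate.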
